A study of Mus musculus with 17 samples.

Results

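The genes described here encode the subunits, regulators and assembly chaperones of the proteasome, measured in sorted mouse eosinophils. They were chosen as the probe sets that carry exactly 1 gene symbol of the Psma to Psmg series, pseudogenes left out, and the probe sets of a gene were averaged. The choice gave 49 genes from 52 probe sets, of 22180 genes with such a name on the array. No filter on low values was applied, so all 49 entered every test. Of the 49, 47 encode parts, regulators or chaperones of the proteasome. The other 2 were not counted as such: Psmc3ip encodes a partner of the recombinases of meiosis, and Psme3ip1 a protein that binds the Psme3 activator. Psma4 is not among the members because its probe sets also carry the name of another gene.

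The proteasome degrades proteins tagged with ubiquitin. Its core is a barrel of stacked rings in which alpha subunits form the gate and 3 kinds of beta subunit cut the chain, while a regulatory particle, made of a base with a ring of ATPases and a lid, binds, unfolds and feeds in the substrate. In blood cells and under interferon the cutting subunits Psmb6, Psmb7 and Psmb5 are replaced by Psmb9, Psmb10 and Psmb8, which gives the immunoproteasome, and the cap made of Psme1 and Psme2 can take the place of the regulatory particle. Eosinophils mature in the marrow, where they build their granule proteins, and then move into tissues.

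All mice carried the CC10-IL13 transgene, in which doxycycline (Dox) in the food switches on interleukin-13. The CC10 promoter is a promoter of airway epithelium, so the eosinophils themselves are not the intended source of the cytokine. Mice were Pirb-/- (knockout) or littermates with Pirb+/+ (wildtype), of both sexes, 6 to 8 weeks old, and Pirb encodes an inhibitory receptor of myeloid cells. There were 6 groups: marrow without Dox from wildtype (2 arrays) and knockout mice (3 arrays), marrow after 2 weeks of Dox from wildtype and knockout mice (3 arrays each), and esophagus after 2 weeks of Dox from wildtype and knockout mice (3 arrays each). Per the labels, the esophagus was digested with collagenase and marrow was not, and CD45+ SiglecF+ CCR3+ cells were sorted from both, so tissue and dissociation cannot be told apart. No label says whether a replicate is 1 animal or a pool, so the p-values speak for the spread among these samples, which may be technical.

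The deposited values are log values, taken as log2, centred on the median of each probe set over arrays. A value of 0 is therefore the middle of the arrays, not a low level. Neither brightness nor the order of levels between genes can be read from the values. "Rose" and "fell" are used only where limma's test gave an adjusted p under 0.05 (Benjamini-Hochberg, across the 22180 genes). Differences are on the log2 scale with the standard error (SE) of the fit. In bulk RNA of sorted cells, fewer cells of a type and less RNA per cell cannot be told apart. The targeted gene does not check the genotype labels: Pirb differed by -0.28 ± 0.39 (SE) between esophageal arrays labelled knockout and wildtype (limma adjusted p = 0.71), and no source used here says which exons its probe set covers. "Knockout" below means the label.

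Array 3 of knockout marrow without Dox stood apart. The SD of its probe sets was 0.811, against 0.25 to 0.592 on the other 16 arrays. Its proteasome genes stood apart as well: their median was -0.97, with 14 of 49 above 0, while the median of all genes on that array was 0.22. The array adds to the spread of every test, so the counts of calls in the tissue and esophageal comparisons, and the calls of the genes described one by one that change, are given with and without it.

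Upstream sequences of 6 members, each with a motif match, are shown as examples. They belong to the constitutive catalytic genes Psmb5 and Psmb6, the immunoproteasome gene Psmb8, and 3 genes that fell in the esophagus. They come from RefSeq (build GRCm38.p6), run 5′ to 3′ on the strand of the gene, and end at or before the last base upstream of the annotated start. Capitals mark matches to 4 motifs, searched on both strands: the antioxidant response element TGACNNNGC, bound by NRF factors, the gamma-activated site TTCNNNGAA, bound by STAT factors, the interferon-stimulated response element, bound by interferon-activated factors, and the CCAAT box with its reverse complement ATTGG. The stretches lie at chr14:54618009-54618067 (minus strand) for Psmb5, chr11:70525323-70525356 (plus) for Psmb6, chr17:34198073-34198131 (plus) for Psmb8, chr7:114276185-114276267 (minus) for Psma1, chr13:14613163-14613217 (plus) for Psma2 and chrX:140956712-140956783 (minus) for Psmd10.
Psmb5: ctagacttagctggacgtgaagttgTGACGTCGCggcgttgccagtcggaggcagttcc
Psmb6: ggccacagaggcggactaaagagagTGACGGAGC
Psmb8: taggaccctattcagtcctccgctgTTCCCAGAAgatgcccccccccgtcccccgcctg
Psma1: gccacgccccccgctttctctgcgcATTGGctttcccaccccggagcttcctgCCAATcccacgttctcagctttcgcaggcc
Psma2: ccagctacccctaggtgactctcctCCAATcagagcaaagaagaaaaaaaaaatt
Psmd10: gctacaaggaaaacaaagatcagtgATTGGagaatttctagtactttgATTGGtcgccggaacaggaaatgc
The 2 constitutive genes hold an antioxidant response element match close to the start, and Psmb8 holds a gamma-activated site match from -97 to -89. A window of 300 bases, 250 upstream and 50 downstream of the start, was found for 41 of the 49 members, in 45 windows. The antioxidant response element was in 13.3% of the members' windows and 12.4% of all 32851 windows, the gamma-activated site in 6.67% and 8.3%, and the CCAAT box in 35.6% and 37.4%. The interferon-stimulated response element was in 11.1% of the members' windows, those of Psmb3, Psmd4, Psmd9, Psme1 and Psmg4, and in 3.44% of all windows. Among the 12 genes with a window that fell in either tissue comparison, 6 held a CCAAT box and 3 a gamma-activated site. An antioxidant response element was in 1 of them and an interferon-stimulated response element in 0. Over all 41 members with a window these counts were 16, 3, 6 and 5. These matches describe letters in a window and are not measured sites.

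Esophageal eosinophils of wildtype mice had lower proteasome transcripts than marrow eosinophils of wildtype mice on the same Dox food. Of the 49 genes 12 fell (24.5%), against 7.06% of all genes, and 1 rose, against 8.11% of all genes. The median difference was -0.74, beside 0.14 for all genes, and 41 of the 49 differences were below 0, as were 30% of all genes. The genes that fell came from most parts of the machine: the alpha ring (Psma1, Psma2 and Psma6), the base (Psmd2), the lid (Psmd7), the immunoproteasome (Psmb8), the activators (Psme4) and the assembly chaperones (Psmd5, Psmd10, Psmg1 and Psmg2), together with Psmc3ip. Psme2 alone rose.

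**Figure D1:**
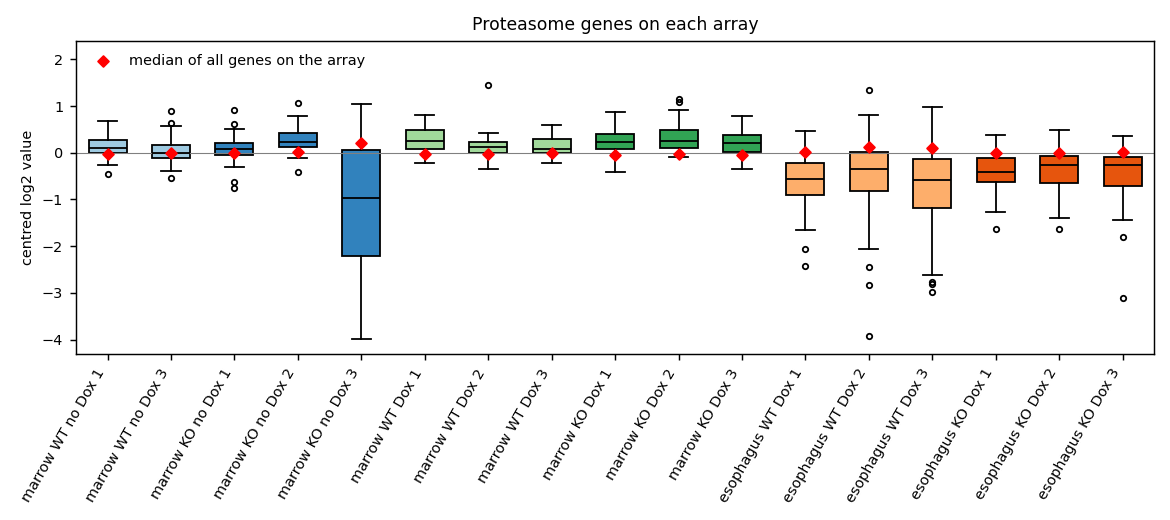
Box plots of the 49 proteasome genes on each of the 17 arrays (centred log2 value; box, quartiles; line, median; whiskers, the farthest values within 1.5 box lengths; circles, values beyond; red diamond, median of all genes on the array). The member medians of the 6 esophageal arrays lie between -0.58 and -0.26, those of the 6 marrow arrays with Dox between 0.08 and 0.26, and array 3 of knockout marrow without Dox lies at -0.97.

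The shift was seen array by array. The member medians were -0.55, -0.34 and -0.58 on the wildtype esophageal arrays and 0.26, 0.12 and 0.08 on the wildtype marrow arrays with Dox. On the single esophageal arrays, 39, 35 and 39 of the 49 genes lay below all 3 of those marrow arrays, as did 25.5%, 22.3% and 22.8% of all genes. For 32 of 49 members all 3 esophageal arrays lay below all 3 marrow arrays, against 13.1% of all genes. Without the outlying array the differences were the same and their error smaller, and 33 members fell, against 11.4% of all genes, while 2, Psme2 and Psmb11, rose, against 25.1% of all genes. Leaving out array 1 of wildtype marrow with Dox left 6 calls, all lower, against 3.6% of all genes lower, and leaving out array 3 of the wildtype esophagus left 8, all lower, against 4.87%.

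Among the alpha subunits, which form the outer rings and gate of the core, Psma1 had the firmest difference. Its values were -2.06, -1.38 and -1.39 in the wildtype esophagus and 0.29, -0.01 and 0.12 in wildtype marrow with Dox. All 3 esophageal arrays were far below every marrow array of that group, a difference of -1.74 ± 0.24 (3.34-fold lower, limma adjusted p = 0.000741). Psma2 fell by 0.93 ± 0.17 (limma adjusted p = 0.0048) and Psma6 fell by 0.74 ± 0.21 (limma adjusted p = 0.0341). The call of Psma6 was kept in 18 of 24 alternatives. Psma5, measured by a pair of probe sets, differed by 0.15 ± 0.12, and Psma8, a subunit of germ cells, by 0.12 ± 0.20.

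The base carries the ATPase ring and the subunits that hold ubiquitin receptors. Psmd2, a large scaffold subunit of the base, was -1.37, -1.83 and -1.45 in the wildtype esophagus and 0.22, 0.02 and 0.15 in wildtype marrow with Dox. The groups were well apart, and the difference of -1.68 ± 0.21 (3.20-fold lower, limma adjusted p = 0.000301) had the smallest p of all members. The 6 ATPase genes Psmc1 to Psmc6 ranged from -2.22 to -0.46, all below 0, and none passed the test with all 17 arrays. All 6 passed without the outlying array. Psmc5, at -0.91, -2.44 and -2.61 in the wildtype esophagus against 0.28, 0.26 and 0.16 in marrow, was the lowest of them at -2.22 ± 0.77 (limma adjusted p = 0.0651, and 0.000758 without the outlying array). On the outlying array it was at -3.38.

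In the lid, which removes ubiquitin chains, Psmd7, the partner of the deubiquitinase subunit Psmd14, was the gene that fell. It was -1.32, -2.83 and -2.99 in the wildtype esophagus and 0.71, 0.28 and -0.21 in wildtype marrow with Dox. The esophageal arrays were spread widely but did not reach the marrow arrays, and the difference was -2.64 ± 0.58 (6.23-fold lower, limma adjusted p = 0.0109). Without array 1 of wildtype marrow with Dox the adjusted p was 0.0508. Psmd14 itself was at -1.01 ± 0.55 (limma adjusted p = 0.191, and 0.00175 without the outlying array), and Psmd8 at 0.09 ± 0.57, with array 2 of the esophagus at 1.34 and the others at -0.09 and 0.01. The 8 lid genes ranged from -2.64 to 0.09, and 6 of them passed without the outlying array.

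Assembly chaperones help the rings form and leave the finished particle. All 7 of their differences were below 0 and 4 passed the test. Psmd10, also known as gankyrin, was -1.51, -3.93 and -2.76 in the wildtype esophagus and 0.53, 0.19 and 0.29 in wildtype marrow with Dox. This was the largest difference among the members, -3.07 ± 0.77 (8.41-fold lower, limma adjusted p = 0.0211), with an adjusted p of 0.0527 to 0.083 on leaving out any of the marrow arrays of that group or array 2 or 3 of the esophagus. Psmg1 differed by -1.58 ± 0.48 (limma adjusted p = 0.0448), Psmd5 by -1.37 ± 0.33 (0.0177) and Psmg2 by -1.20 ± 0.34 (0.0316). The calls of Psmg1, Psmd5 and Psmg2 were kept in 10, 21 and 17 of 24 alternatives. The 2 probe sets of Psmg2 disagreed in size, at -0.51 and -1.89. Psmc3ip, which is no proteasome part, was -1.58, -1.21 and -1.5 in the esophagus against 0.68, 0.00 and 0.45 in marrow, a difference of -1.81 ± 0.39 (limma adjusted p = 0.0106).

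**Figure D2:**
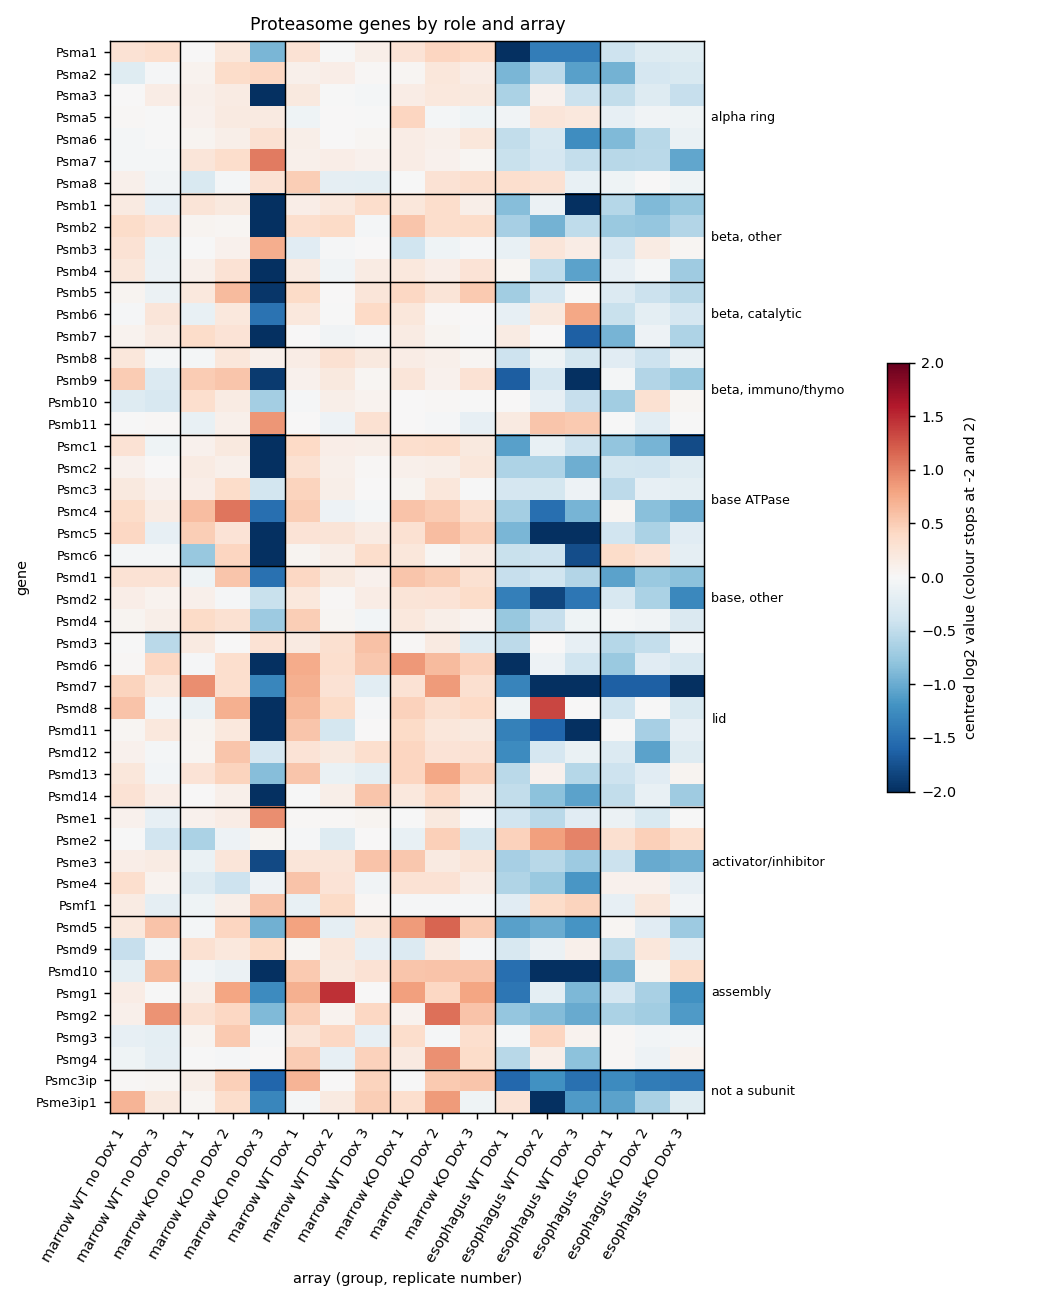
Centred log2 values of the 49 genes (rows, grouped by role) on the 17 arrays (columns, by group and replicate number), with red for positive and blue for negative values and the colour stopping at -2 and 2. The esophageal columns are mostly blue, and array 3 of knockout marrow without Dox holds the lowest value of the map, -3.99 for Psmc2.

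Of the catalytic genes, Psmb8 passed the test with all arrays. Psmb8, the immunoproteasome form of Psmb5, was -0.41, -0.08 and -0.35 in the wildtype esophagus and 0.15, 0.31 and 0.19 in wildtype marrow with Dox. The arrays did not overlap, and the gene fell by 0.50 ± 0.11 (1.41-fold lower, limma adjusted p = 0.0121), a call kept in all 24 alternatives run. Psmb9, the immunoproteasome form of Psmb6, was -1.65, -0.34 and -2.18 against 0.08, 0.20 and 0.04. These arrays did not overlap either, but the esophageal arrays were far apart, and -1.5 ± 0.57 did not pass (limma adjusted p = 0.0873) with all arrays. Without the outlying array, on which Psmb9 was -1.92, it passed (limma adjusted p = 0.00972). Psmb10, the form of Psmb7, was 0.01, -0.16 and -0.46 against -0.02, 0.12 and 0.08, and its difference of -0.26 had a 95% confidence interval of -0.82 to 0.30.

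None of the constitutive catalytic genes passed with all arrays. Psmb5 was -0.69, -0.33 and -0.01 in the wildtype esophagus and 0.38, 0.01 and 0.24 in wildtype marrow with Dox, a difference of -0.56 (95% confidence interval -1.56 to 0.45). For Psmb6 the esophageal arrays were -0.16, 0.19 and 0.78 and those of marrow 0.21, -0.01 and 0.40, a difference of 0.07 (95% confidence interval -0.66 to 0.80). Psmb7 was 0.16, 0.00 and -1.64 against 0.00, -0.07 and -0.02, so that its difference of -0.46 rested on array 3 of the esophagus. Psmb5 fell without the outlying array (limma adjusted p = 0.0235), and Psmb6 and Psmb7 did not pass (limma adjusted p = 0.796 and 0.316). Whether the constitutive and immunoproteasome forms differed in their change was not tested.

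Psme1 and Psme2 encode the partner chains of the interferon-inducible cap, and their differences had opposite signs. Psme2 was 0.47, 0.82 and 0.99 in the wildtype esophagus and -0.03, -0.26 and 0.00 in wildtype marrow with Dox. Every esophageal array was above every marrow array, and the gene rose by 0.85 ± 0.22 (1.80-fold, limma adjusted p = 0.0241). The call was lost on quantile normalization (limma adjusted p = 0.13) and on leaving out array 1 or 2 of that marrow group or array 2 or 3 of the esophagus (limma adjusted p = 0.0637 to 0.082). Psme1 was -0.38, -0.53 and -0.23 against 0.02, 0.03 and 0.05, at -0.42 ± 0.18 (limma adjusted p = 0.121), and it fell without the outlying array (limma adjusted p = 0.00902). A probe set that Psme2 shares with other genes, not counted among the members, differed by 0.62. Others of this kind were at 0.205 for Psmd1 and at -0.657 and 0.045 for Psma4. Of the other activators, Psme4, a single-chain cap of the core, fell by 1.09 ± 0.17 (limma adjusted p = 0.00139), and Psme3, a nuclear cap, was at -1.0 ± 0.38 (limma adjusted p = 0.0833, and 0.001 without the outlying array). Psmf1, an inhibitor of the core, was at 0.11 ± 0.21.

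**Figure D3:**
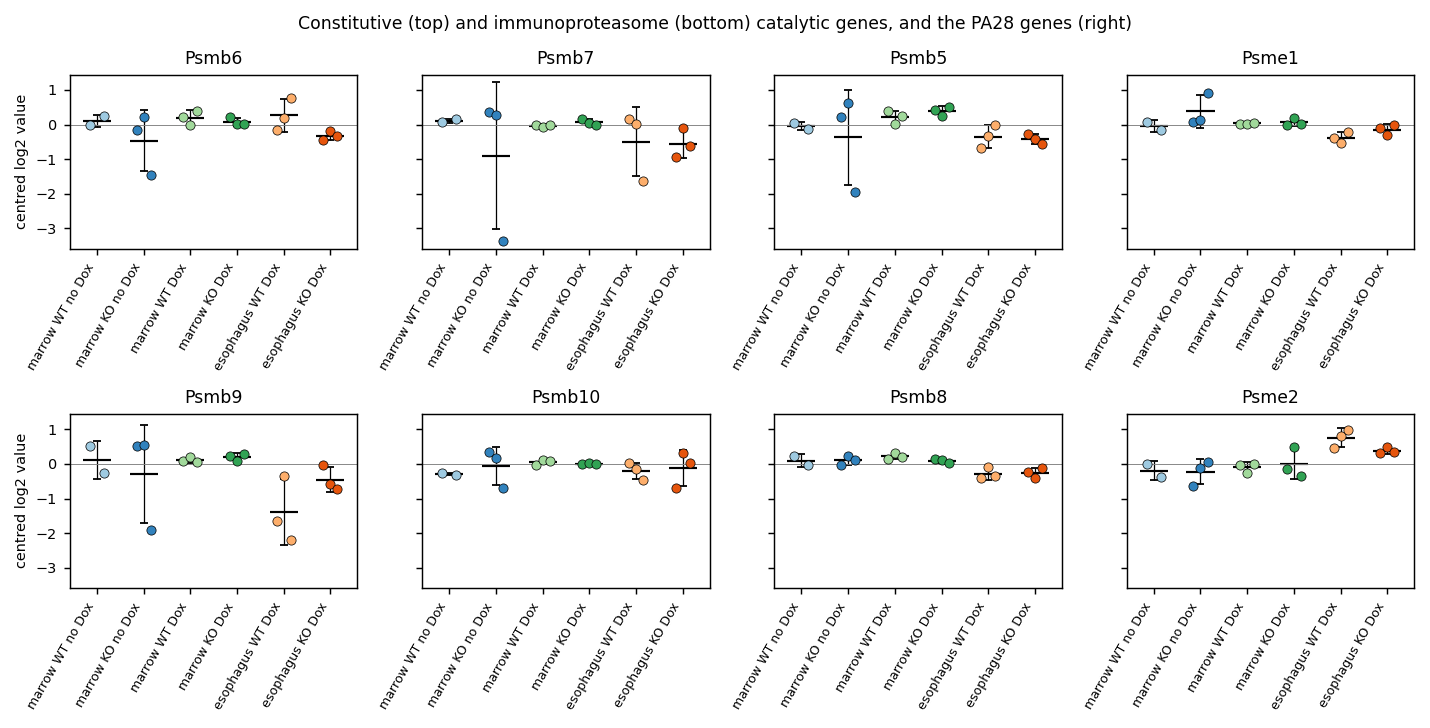
Centred log2 values of the constitutive catalytic genes (top row), the immunoproteasome form of each below it, and Psme1 and Psme2 at the right, with 1 point per array, the group mean as a line and its SD as a bar. Psmb8 and Psme2 are the genes whose wildtype esophageal arrays lay apart from the wildtype marrow arrays with Dox and that passed the test with all arrays, at -0.50 and 0.85. Array 3 of knockout marrow without Dox gives the lowest point of Psmb5, Psmb6 and Psmb7, down to -3.35 for Psmb7, and the highest of Psme1, at 0.925.

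Knockout mice gave the same comparison in other animals, with no array shared between the genotypes. Of the 49 genes 8 fell (16.3%), against 6.04% of all genes, and none rose, against 4.5% of all genes. The median difference was -0.66, beside 0.06 for all genes, and 45 of 49 differences were below 0, as were 36.4% of all genes. The member medians were -0.40, -0.27 and -0.26 on the esophageal arrays and 0.22, 0.26 and 0.22 on the marrow arrays with Dox. On the single esophageal arrays 44, 41 and 41 of 49 genes lay below all 3 marrow arrays, as did 28.6%, 28% and 25.5% of all genes. The arrays were apart, with the esophagus lower, for 37 members, against 16% of all genes.

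The genes that fell in the knockout were Psma2, Psma7, Psmc3ip, Psmd1, Psmd2, Psmd5, Psmd7 and Psmg2. Psmd7 was -1.63, -1.63 and -3.11 in the esophagus and 0.30, 0.85 and 0.32 in marrow, and its difference of -2.61 ± 0.58 (6.12-fold lower, limma adjusted p = 0.0103) was the largest. Psmc3ip was -1.26, -1.40 and -1.44 against 0.00, 0.52 and 0.55, at -1.72 ± 0.39 (limma adjusted p = 0.0123). Psmg2 was -0.63, -0.69 and -1.13 against 0.08, 1.10 and 0.57, at -1.40 ± 0.34 (limma adjusted p = 0.0163). In each of these the groups did not overlap.

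Psmd1 is the other large scaffold of the base. It was -1.07, -0.74 and -0.81 in the knockout esophagus and 0.55, 0.50 and 0.31 in knockout marrow with Dox. The difference was -1.33 ± 0.35 (limma adjusted p = 0.0269). A probe set that Psmd1 shares with another gene, not counted among the members, differed by 0.018 in the knockout. The shared probe sets of Psma4 were at -0.431 and -0.177 there, and that of Psme2 at 0.709. Psmd5, a chaperone of the base, was 0.04, -0.22 and -0.72 against 0.84, 1.16 and 0.50, at -1.14 ± 0.33 (limma adjusted p = 0.0437). Both calls were near the threshold: Psmd1 lost it on leaving out any of the 6 arrays compared (limma adjusted p up to 0.095), and Psmd5 in 14 of 24 alternatives (up to 0.171). The remaining 3 differences were -1.05 for Psmd2, -0.80 for Psma7 and -0.66 for Psma2. Psma2 and Psmg2 kept their calls in the knockout in 19 and 21 of 24 alternatives (limma adjusted p up to 0.105 and 0.0783). Psmc3ip and Psmd7 kept theirs in 23, and Psmd2 and Psma7 in all 24. The probe sets of Psmg2 were at -0.98 and -1.82 in the knockout. Without the outlying array 22 members fell, against 9.07% of all genes. The count of members that fell went to 5, 4 and 3 on leaving out arrays 1, 2 and 3 of knockout marrow with Dox, against 4.09%, 4.22% and 4.15% of all genes. It went to 5 on leaving out array 1 or array 3 of the knockout esophagus, against 3.97% and 4.17%.

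In the knockout no immunoproteasome or cap gene passed the test with all 17 arrays. Psmb8 was -0.22, -0.41 and -0.12 in the esophagus and 0.14, 0.10 and 0.04 in marrow, at -0.34 ± 0.11 (limma adjusted p = 0.069). Psmb9 was -0.04, -0.59 and -0.74 against 0.24, 0.09 and 0.30, at -0.66 ± 0.57. The arrays did not overlap for either gene. Psmb8 fell without the outlying array (limma adjusted p = 0.0496) and Psmb9 did not pass (limma adjusted p = 0.237). Psmb10 was -0.69, 0.30 and 0.03 against 0.00, 0.02 and 0.00, at -0.13 ± 0.26. Psme1 was -0.11, -0.31 and -0.01 against -0.01, 0.19 and 0.01, and Psme2 was 0.32, 0.48 and 0.33 against -0.15, 0.48 and -0.35, at 0.38 ± 0.22 (limma adjusted p = 0.335). With that array left out the adjusted p in limma was 0.713 for Psmb10, 0.18 for Psme1 and 0.237 for Psme2, and Psme3, the nuclear cap, fell (limma adjusted p = 0.000454).

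The constitutive forms in the knockout were below their marrow arrays as well. Psmb5 was -0.27, -0.42 and -0.55 against 0.41, 0.26 and 0.52, Psmb6 was -0.44, -0.20 and -0.34 against 0.22, 0.02 and 0.01, and Psmb7 was -0.92, -0.10 and -0.61 against 0.16, 0.06 and 0.00. None of the 3 groups of arrays overlapped. Their differences of -0.81 ± 0.47, -0.41 ± 0.34 and -0.62 ± 0.76 did not pass with all 17 arrays, and Psmb5 passed without the outlying array (limma adjusted p = 0.00525).

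**Figure D4:**
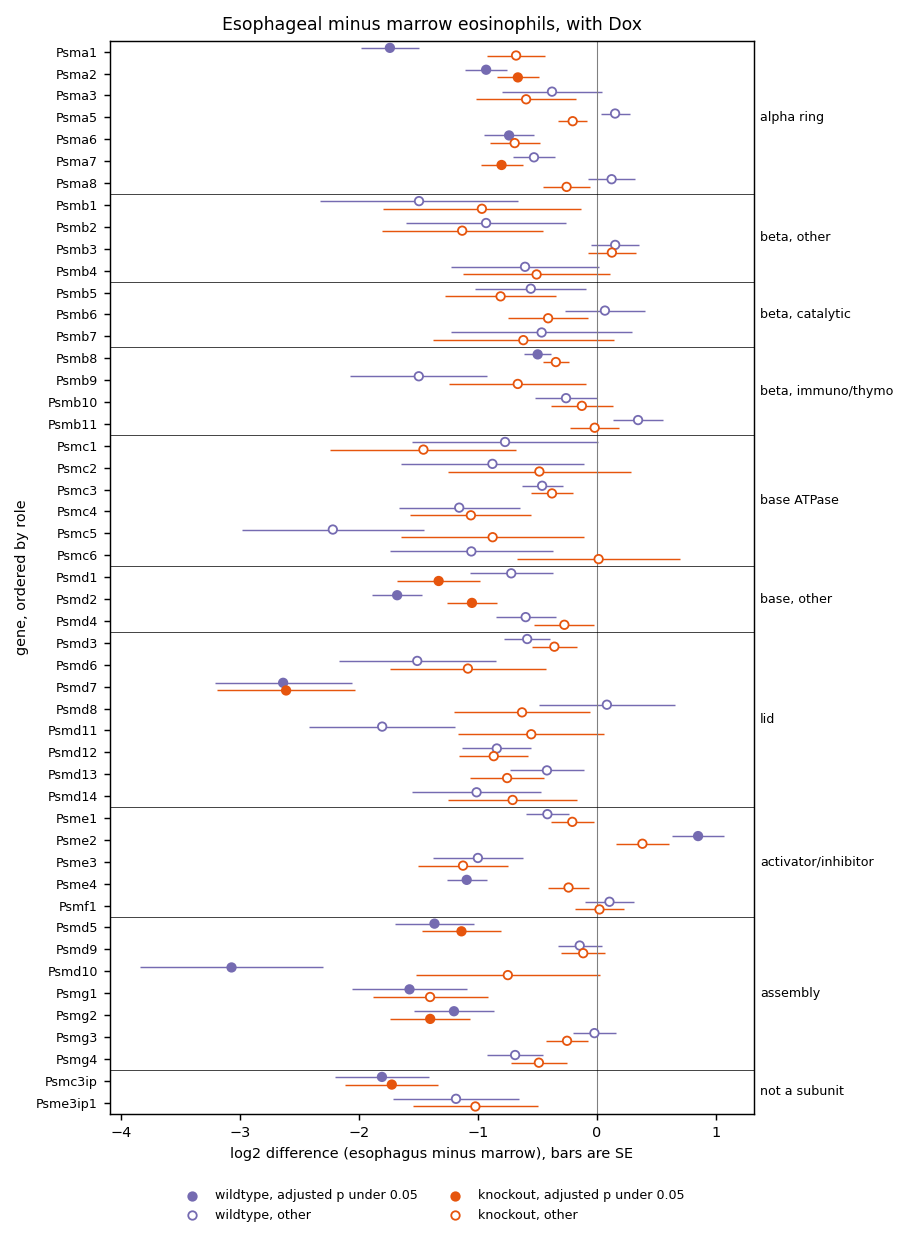
Difference between esophageal and marrow eosinophils with Dox for each of the 49 genes, grouped by role, in wildtype (purple) and knockout (orange), on the log2 scale with bars of 1 SE and filled points where the adjusted p is under 0.05. Of the points, 41 in wildtype and 45 in knockout lie left of 0, and Psme2 in wildtype is the filled point to the right, at 0.85.

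Psma2, Psmc3ip, Psmd2, Psmd5, Psmd7 and Psmg2 fell in both genotypes. The share of all genes that fell in both was not counted. Both tests came from the same fit, with the same error for each gene, so the lists are not independent. In all, 40 of 49 differences were below 0 in both genotypes, as were 24% of all genes. The arrays were apart, with the esophagus lower, in both genotypes for 29 members, against 9.5% of all genes. The genotypes were also compared directly, as the tissue difference in the knockout minus that in wildtype. No member passed this test in limma (0.00451% of all genes did), and 2 members, Psme4 and Psma1, were under an unadjusted p of 0.05, against 4.95% of all genes. Psme4 was -0.60, -0.75 and -1.16 in the wildtype esophagus against 0.56, 0.27 and -0.07 in wildtype marrow with Dox, and 0.09, 0.09 and -0.16 in the knockout esophagus against 0.29, 0.30 and 0.15 in knockout marrow. The tissues did not overlap in either genotype. Psme4 differed between genotypes by 0.86 ± 0.24 (limma adjusted p = 0.619) and Psma1 by 1.06 ± 0.34 (limma adjusted p = 0.799). Psmd10 had the next smallest p, at 2.32 ± 1.09. In knockout marrow with Dox, Psma1 was at 0.28, 0.43 and 0.39 and Psmd10 at 0.56, 0.57 and 0.58.

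Other genes of the pathway were described from lists, beside 7.06% of all genes lower and 8.11% higher in wildtype, 6.04% and 4.5% in knockout, and medians over all genes of 0.14 and 0.06. Of 14 proteins that dock on or feed the proteasome, 12 were measured: 2 fell in wildtype and 1 in knockout, with medians of -0.41 and -0.21. These were Usp14 and Uchl5, the deubiquitinases that bind the regulatory particle. Usp14 differed by -2.33 ± 0.27 in wildtype (limma adjusted p = 0.000167) and -2.62 ± 0.27 in knockout (limma adjusted p = 4.49e-05), while Uchl5 fell by 2.23 ± 0.48 in wildtype (limma adjusted p = 0.00991) and was at -1.27 ± 0.48 in knockout (limma adjusted p = 0.124). Of 9 measured regulators of proteasome gene expression and substrate extraction, Vcp, the ATPase that pulls ubiquitin-tagged proteins out of complexes, fell by 1.42 ± 0.15 in wildtype (limma adjusted p = 7.42e-05) and by 1.04 ± 0.15 in knockout (limma adjusted p = 0.000576). Nfe2l2, a factor that binds antioxidant response elements, rose by 0.96 ± 0.22 in wildtype (limma adjusted p = 0.0151) and was at 0.58 ± 0.22 in knockout (limma adjusted p = 0.132). The other 7 did not pass in either genotype. Of 6 genes of ubiquitin and its activating enzymes only Uba6, an activating enzyme, was measured, and it fell by 1.28 ± 0.36 in wildtype (limma adjusted p = 0.0336) and was at 0.57 ± 0.36 in knockout (limma adjusted p = 0.394).

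The next lists stand beside 7.06% of all genes lower and 8.11% higher in wildtype, and 6.04% and 4.5% in knockout. The medians over all genes were 0.14 and 0.06. Peptides made by the proteasome are loaded onto class I molecules in the endoplasmic reticulum. Of 11 measured genes of that route, 3 fell in each genotype and none rose, with medians of -0.02 and -0.10. These were the chaperones Calr, at -2.04 ± 0.28 in wildtype and -1.89 ± 0.28 in knockout, Pdia3, at -0.92 and -0.95, and Canx, at -0.66 and -0.74. Of 15 measured interferon pathway genes, 2 fell in wildtype, and in the knockout 2 rose and 1 fell, with medians of 0.27 and 0.13. The genes that rose were Isg15, at 2.12 ± 0.28 (limma adjusted p = 0.000316), and Cxcl10, at 1.51 ± 0.18 (limma adjusted p = 0.000193).

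Markers of other cells differed with the tissue by the same test, beside the same shares and medians over all genes. Of 11 neutrophil markers, 8 were lower and 1 higher in the esophagus in each genotype, with medians of -3.11 in wildtype and -2.43 in knockout. The mean of that list was -3.54 to -2.48 on the 6 esophageal arrays and -0.06 to 0.18 on the 6 marrow arrays with Dox. Mast cell and basophil markers had 3 of 8 lower in each genotype, macrophage markers had 2 of 10 lower and 1 higher in wildtype and 5 lower and 1 higher in knockout, and dendritic cell markers had 3 of 7 higher in each. Epithelial and fibroblast markers had 1 of 9 higher and 1 lower in wildtype and 3 higher in knockout, and lymphoid markers had 1 and 2 of 8 lower. Of 8 measured genes of eosinophil identity, the granule genes Epx, Prg2 and Prg3 were lower in both genotypes, with Prg3 at -5.22 and -4.91, Alox15 was higher in both, and 2 more were higher in the knockout. Because the values are centred, whether a defining marker is present at all cannot be read, and the part of these cells or of eosinophil maturation in the proteasome differences was not tested.

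Loss of Pirb was compared within esophageal eosinophils. Psma1 rose in the knockout and no other member passed, so 1 of 49 was higher (2.04%), against 0.311% of all genes. Its arrays, -0.42, -0.26 and -0.25 in the knockout against -2.06, -1.38 and -1.39 in wildtype, did not overlap, and the difference was 1.30 ± 0.24 (2.46-fold, limma adjusted p = 0.0457). This call was fragile. It was kept in 6 of 23 alternatives, the value ranged from 0.58 to 1.41 and the adjusted p reached 0.514 on quantile normalization, and leaving out any array other than array 3 of knockout marrow without Dox, array 2 of that group or array 1 of the wildtype esophagus took the adjusted p to between 0.0586 and 0.137. The median difference of the members was 0.08, beside -0.10 for all genes, and -0.04 on quantile normalization.

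The members next by p did not pass. Psme4 was 0.09, 0.09 and -0.16 in the knockout and -0.60, -0.75 and -1.16 in wildtype, at 0.84 ± 0.17 (limma adjusted p = 0.0573). Psmd10 was -0.97, 0.06 and 0.36 against -1.51, -3.93 and -2.76, at 2.55 ± 0.77 (limma adjusted p = 0.201), and Psmd2 was at 0.80 ± 0.21 (limma adjusted p = 0.148). For all 3 the arrays did not overlap. In all, 9 members were apart and higher in the knockout, against 5.67% of all genes, and 4 apart and lower, against 17.6%. Without the outlying array 6 members rose, against 1.75% of all genes: Psma1, Psme4, Psmd2, Psmd10, Psmd11 and Psmc5. Other lists also differed between the genotypes in the esophagus. Of 8 eosinophil identity genes 1 was higher in the knockout, Siglecf, the receptor used in the sort, at 0.95 ± 0.16 (limma adjusted p = 0.0259). The median of that list was 0.59, beside -0.10 for all genes, and its mean was -0.18 to 0.22 on the knockout arrays and -0.89 to -0.37 on the wildtype arrays. Of 15 interferon pathway genes 1 was higher, Cxcl10, a chemokine, at 1.16 ± 0.18 (limma adjusted p = 0.0239), with a list median of 0.20. Their part in the proteasome differences was not tested. The shared wildtype esophageal arrays enter both this comparison and the wildtype tissue comparison.

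No catalytic or cap gene passed the genotype test in the esophagus with all arrays, and of them only Psme4 passed without the outlying array. For Psmb8 the difference was 0.03, with a 95% confidence interval of -0.21 to 0.27. That of Psmb10 was 0.08 (-0.48 to 0.64), that of Psmb9 0.93 (-0.31 to 2.17), and that of Psme2 -0.38 (-0.86 to 0.10). Of the constitutive genes, Psmb6 was at -0.59 (-1.33 to 0.14), with arrays of the genotypes that did not overlap. Psmb5 was at -0.07 (-1.08 to 0.94) and Psmb7 at -0.05 (-1.70 to 1.59). Each of these intervals leaves room for a difference in either direction, and that of Psmb8 is the narrowest.

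**Figure D5:**
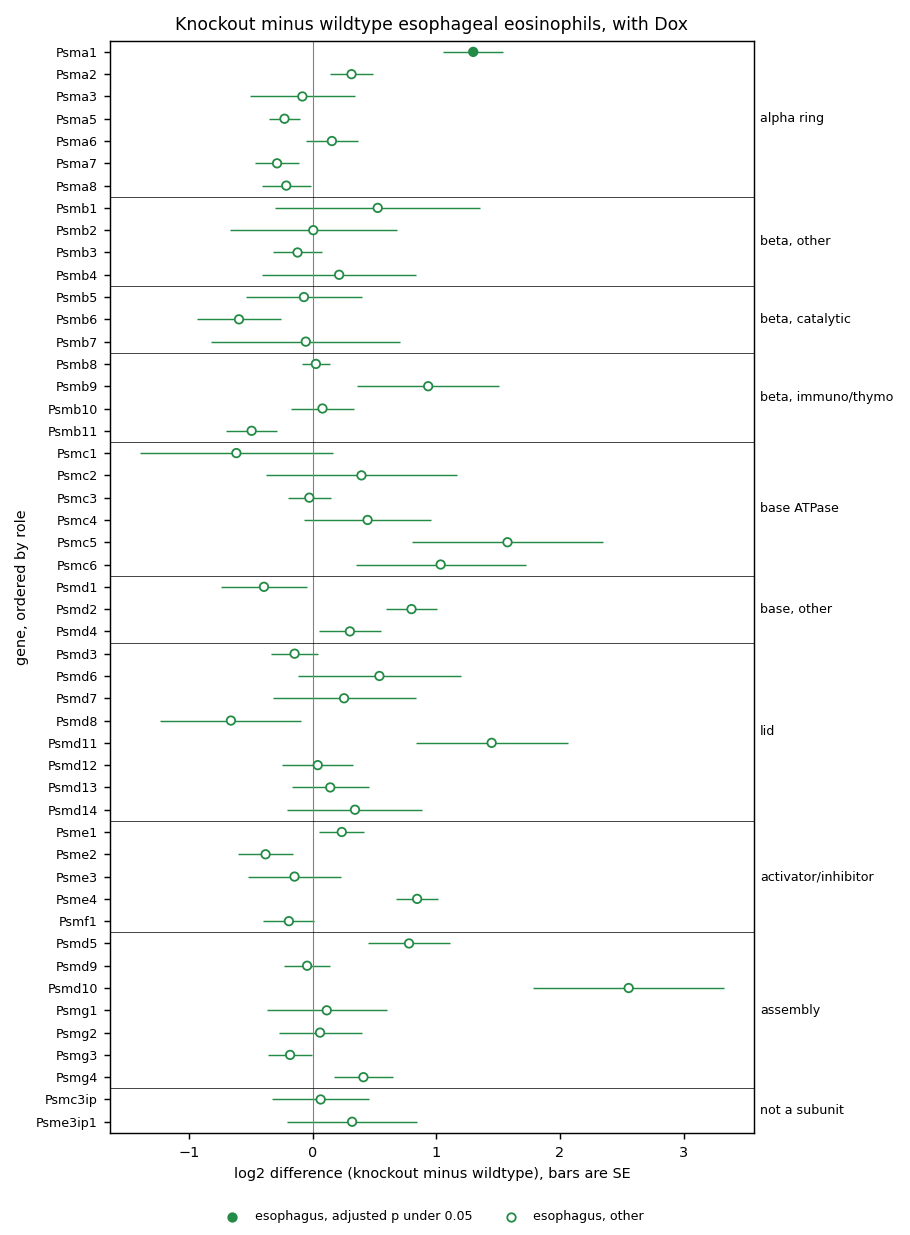
Difference between knockout and wildtype esophageal eosinophils with Dox for each of the 49 genes, grouped by role, on the log2 scale with bars of 1 SE and filled points where the adjusted p is under 0.05. Psma1, at 1.30, is the filled point, and 30 of the 49 points lie right of 0, as do 30.1% of all genes.

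In marrow, the comparisons of genotype and of Dox called no member. Between knockout and wildtype marrow with Dox limma called 0 of 49 members and 0% of all genes, and at an unadjusted p under 0.05 it was 0 of 49 against 1.83%. The smallest p belonged to Psmd3, a lid subunit, at -0.37 ± 0.19, Psmd5 at 0.55 ± 0.33 and Psmd13, another lid subunit, at 0.48 ± 0.31. Psmd3 was 0.03, 0.18 and -0.25 in the knockout and 0.18, 0.31 and 0.59 in wildtype. Psmd5 was 0.84, 1.16 and 0.50 against 0.80, -0.18 and 0.22, and Psmd13 was 0.43, 0.77 and 0.48 against 0.56, -0.13 and -0.19. The genotypes overlapped for all 3 genes. The median was 0.07, and the 6 arrays lay close together. The median SD of the members was 0.19 in wildtype and 0.12 in knockout, below the 0.33 and 0.26 of the esophageal groups. All genes had the same order and smaller values, with 0.11 and 0.09 in these marrow groups and 0.17 and 0.12 in the esophageal groups.

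Without Dox limma called 0 members and 0% of all genes between the genotypes, with 3 members under an unadjusted p of 0.05 against 8.16% of all genes. These were Psma7, an alpha subunit, at 0.59 ± 0.20, Psmd9, a chaperone, at 0.56 ± 0.21 and Psme4 at -0.46 ± 0.19. Psma7 was 0.24, 0.36 and 1.04 in the knockout and -0.04 and -0.05 in wildtype. Psmd9 was 0.30, 0.21 and 0.39 against -0.46 and -0.06, and Psme4 was -0.25, -0.41 and -0.10 against 0.34 and 0.07. The arrays of the genotypes did not overlap for any of these 3 genes. They were picked by smallest p on the same arrays, so this is no further support. The median was -0.34, and 0.08 without the outlying array.

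Dox was compared with no Dox in marrow of each genotype. In wildtype limma called 0 members, against 0.0225% of all genes, and 1 member was under an unadjusted p of 0.05, against 4.31%: Psmd3, which was 0.18, 0.31 and 0.59 with Dox and -0.01 and -0.55 without, at 0.64 ± 0.21 (limma adjusted p = 0.839). Psmg3 and Psmg4, both chaperones, followed at 0.35 ± 0.20 and 0.40 ± 0.27. Psmg3 was 0.26, 0.42 and -0.16 with Dox and -0.16 and -0.20 without, and Psmg4 was 0.51, -0.16 and 0.47 against -0.08 and -0.17. The median was 0.08. In the knockout limma called 0 members, against 0.0225% of all genes, and 9 were under an unadjusted p of 0.05, against 27.3%. Psmd5 had the smallest p, at 1.03 ± 0.33 (limma adjusted p = 0.148), then Psme4 at 0.50 ± 0.17 and Psma7 at -0.46 ± 0.18. Psmd5 was 0.84, 1.16 and 0.50 with Dox and -0.04, 0.42 and -0.97 without. Psme4 was 0.29, 0.30 and 0.15 against -0.25, -0.41 and -0.10, and Psma7 was 0.14, 0.09 and 0.04 against 0.24, 0.36 and 1.04. The arrays with and without Dox did not overlap for any of these 3 genes, which is no further support, since they too were picked by smallest p. The median of 0.55 was 0.05 without the outlying array. No member passed the test of the Dox effect between genotypes (limma, 0 members and 0% of all genes), and there were 4 members under an unadjusted p of 0.05 against 6.27% of all genes, led by Psmd3 at -0.81 ± 0.29, Psmd5 at 1.14 ± 0.50 and Psma7 at -0.61 ± 0.26.

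The outlying array was described gene by gene, with no test, since it is a single array. Against the mean of the other two arrays of its group, its members had a median of -1.24, beside 0.20 for all genes. Of the 49, 34 were below 0, 29 were lower by over 1, as were 10.2% of all genes, and 17 were lower by over 2. The shares of all genes below 0 or lower by over 2 were not counted. The ATPase genes were among the lowest, with Psmc2 at -3.99, Psmc1 at -3.86, Psmc6 at -3.40 and Psmc5 at -3.38 on the centred scale, while Psma7 was at 1.04, Psme1 at 0.93 and Psmb11, the thymus form of the catalytic subunit, at 0.88. Examples in this paragraph were chosen after their values were seen. Across the 49 members the deviation of this array had a Pearson correlation of 0.51 with the wildtype tissue difference and 0.44 with that of the knockout, and across all genes 0.52 and 0.36. Genes are not independent replicates, and these values describe 1 array.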

How the data were processed

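RNA of sorted eosinophils was amplified and labelled with Nugen kits for 1-colour Affymetrix arrays, per the labels' protocols, and the submitters' processing notes name Affymetrix Expression Console without a version. The authors deposited log values, taken here as log2, for 33793 probe sets on 17 arrays, and no source used here gives their log base or scaling between arrays. The values were centred per probe set by the authors: in 97.08% of probe sets 2 middle values cancelled (tolerance 2e-05). Per the series' design text, a replicate of wildtype marrow without Dox was left out because its hybridization was weak. A filter on dim probe sets needs brightness and was not used.

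Probe sets with 1 gene symbol in the platform annotation (23521; 1814 had several and 8458 none) were averaged to 22180 genes. All arrays entered 1 model of 6 group means in limma 3.58.1 (R 4.3.3; lmFit and eBayes, two-sided), first tested on simulated data. P-values were adjusted across all genes (Benjamini-Hochberg), with a threshold of 0.05. There were 9 comparisons: tissue in each genotype, genotype in 3 settings, Dox in each genotype, and 2 interactions. The members and gene lists were chosen with earlier results of these data known.

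Arrays were called apart where the groups' values did not overlap. Values per array are given for the catalytic genes, Psme1 and Psme2 and, in each comparison, for up to the 5 genes of largest difference that passed in each direction, or the 3 of smallest p where none passed (for the 2 interactions, in the comparisons they are made of); other genes named were chosen after their values were seen. Of 15 pairs of arrays with the same replicate number, deviations from the group means correlated at -0.0902 to 0.119, and 1 pair was over 0.1, so the numbers were not taken as pairs. Alternatives were other array scalings, array weights, the lowest-numbered probe set, only the groups compared, replicate blocks, and leaving out each array. The number of arrays limits the precision.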

Additional observations from a re-analysis of the deposited data

How the results depend on the processing

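The direction of the member medians in the tissue comparisons held in every alternative run. With all arrays, 13 members passed in wildtype, 8 in knockout and 1 between genotypes in the esophagus, beside 15.2%, 10.5% and 0.347% of all genes. Only the groups compared gave 21, 25 and 0 (13.5%, 20.1% and 0.0361% of all genes), and array quality weights 32, 25 and 6 (37%, 27.6% and 3.87%). For Dox in knockout marrow the array weights called 1 of 49 members, against 3331 of 22180 genes, and took the median to 0.0265. Quantile normalization gave 12, 15 and 0 (9.23%, 12.2% and 0.00902%), with medians of -0.62 in the wildtype tissue comparison and -0.039 between genotypes in the esophagus, and median centring gave 2 calls there (0.46%). With the replicate number as a replicate block the counts were 13, 9 and 1 (16.4%, 10.6% and 0.212%), and Psma1 between genotypes had a limma adjusted p of 0.065. A replicate block within genotype gave 23 and 15 for the tissue comparisons (24.9% and 13%). Leaving out each array in turn gave 6 to 35, 3 to 22 and 0 to 6 calls, beside 6.02% to 36.5%, 6.93% to 18.8% and 0.0992% to 3.44% of all genes. The medians then ran from -0.674 to -0.55 in the knockout tissue comparison and from 0.0545 to 0.866 for Dox in the knockout. The causes were not tested, beyond the fewer arrays of some fits. No member that passed with all arrays changed direction. Of the 73 differences of single members followed, 10 changed sign in at least 1 alternative, none of them past the threshold on either side. In the wildtype tissue comparison Psmb6 was at -0.036 on median centring and -0.0403 on quantile normalization, Psmd8 at -0.0195 on median centring and -0.135 with array weights, Psma8 at -0.0308 with array weights and Psmf1 at -0.00111 on quantile normalization. Between genotypes in the esophagus Psmb5 was at 0.0148 and Psmb7 at 0.0296 on median centring, Psmb7 at 0.419 with array weights and Psmb8 at -0.0194 on quantile normalization. Leaving out each array gave, in the wildtype tissue comparison, -0.186 to 0.283 for Psmb6, -0.789 to 0.11 for Psmb7, -0.376 to 0.339 for Psmd8 and -0.0177 to 0.315 for Psmf1, and in the knockout -0.336 to 0.162 for Psmb10. Between genotypes it gave -0.241 to 0.0956 for Psmb5, -0.628 to 0.271 for Psmb7, -0.038 to 0.126 for Psmb8 and -0.13 to 0.367 for Psmb10. Groups of 2 or 3 arrays and centred values, which hold no signal over background, limit these results.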
